A study of Mus musculus with 8 samples.

Results

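Macrophage markers were followed in embryonic mouse gonads through the probe sets annotated to 8 genes, namely Adgre1, Cd14, Laptm5, Csf1r, Cd68, Tyrobp, Fcer1g and C1qb. These genes gave 14 of the 12488 probe sets on the array. The data are 8 Affymetrix MG_U74Av2 arrays of whole gonads, 1 for each combination of genotype (Wnt4 knock-out, KO, or wild type, WT), sex (male or female) and stage (E14.5 or E12.5). The groups were thus KO males, WT males, KO females and WT females at E14.5 and the same 4 at E12.5, with no replicate of any of them. The sources used here do not give the Wnt4 allele, the strain, or how many gonads went into an array. Nothing was sorted from the gonads. Fewer macrophages and less RNA per macrophage therefore cannot be told apart in any value below.

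Macrophages are phagocytes of the innate immune system that settle in most organs of the embryo, the gonads included. In the fetal mouse testis they are known to lie near vessels and to take part in vascular remodelling and clearance of cells. They depend on signalling through the CSF1 receptor and on the transcription factor PU.1, which Spi1 encodes. The markers cover 4 roles. Csf1r (the receptor for CSF1 and IL-34) and Adgre1 (an adhesion-type receptor and classical surface antigen of mouse macrophages) are surface proteins of the lineage. Laptm5 and Cd68 are lysosome-associated membrane proteins, the first found in most blood cells. Tyrobp (DAP12) and Fcer1g (the common gamma chain of Fc receptors) are adaptors that carry ITAM signalling motifs. Cd14 binds bacterial lipopolysaccharide, and C1qb encodes a chain of complement C1q, a product of tissue macrophages.

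PU.1 binds purine-rich DNA whose classical core is GAGGAA, so the stretches before the starts of the marker genes are shown with that core in capitals. The RefSeq promoter table (build GRCm38.p6) held 4 of the 8 genes, and for 3 of these the window lay outside the gene's own span. Each window is the 250 bases before the annotated start, printed 5′ to 3′ on the gene's own strand.
Cd68, chr11:69666171-69666420, minus strand: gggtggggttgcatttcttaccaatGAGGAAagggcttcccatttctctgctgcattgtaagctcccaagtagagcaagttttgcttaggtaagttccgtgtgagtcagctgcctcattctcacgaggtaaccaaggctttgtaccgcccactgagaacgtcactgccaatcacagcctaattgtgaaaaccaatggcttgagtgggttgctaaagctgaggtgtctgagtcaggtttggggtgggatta
C1qb, chr4:136886201-136886450, minus strand: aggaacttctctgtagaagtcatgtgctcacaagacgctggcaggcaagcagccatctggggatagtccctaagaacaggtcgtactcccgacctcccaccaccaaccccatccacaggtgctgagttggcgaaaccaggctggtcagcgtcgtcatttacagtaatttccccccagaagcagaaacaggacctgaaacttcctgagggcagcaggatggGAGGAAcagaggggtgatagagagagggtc
Fcer1g, chr1:171234350-171234599, minus strand: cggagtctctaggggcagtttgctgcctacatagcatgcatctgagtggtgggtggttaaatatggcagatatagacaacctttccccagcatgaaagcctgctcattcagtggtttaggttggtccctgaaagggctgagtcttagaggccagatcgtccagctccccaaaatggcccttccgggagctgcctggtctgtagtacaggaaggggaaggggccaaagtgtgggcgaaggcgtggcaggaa
GAGGAA was searched on both strands, that is, also as TTCCTC. Cd68 and C1qb each held it once on the printed strand, and the Fcer1g window did not hold these letters. Of 32851 promoter windows of the same length, 23.3% held it. A match is a description of the letters and not a measured site. The level of Spi1 itself is given with the other genes of the pathway.

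All values are log2 signals after each array was centred on a common median. A floor of 6.99, the 40th percentile of all values, stands for the level below which signals were not ordered. The share of probe sets above it ran from 59.7% to 60.4% over the arrays. The 2 E14.5 male arrays stood apart from the rest, correlating with the other 6 arrays at a Pearson r of 0.883 to 0.907 across probe sets, where those 6 correlated with each other at 0.979 to 0.997. What belongs to those arrays and what belongs to the testis at E14.5 cannot be told apart in any value that rests on them. The targeted gene Wnt4 was at 8.32 in KO females and 9.45 in WT females at E14.5, and at 8.59 and 10.19 in the same groups at E12.5. In males it was at 9.19 (KO) and 9.42 (WT) at E14.5 and at 8.34 (KO) and 9.26 (WT) at E12.5. The array labelled WT female E14.5 went partly against its label. The Y-linked gene Eif2s3y was at 7.63 on it, within the 6.91 to 8.12 of the male arrays, against 4.86 to 6.04 on the other 3 female arrays. Summaries of KO against WT females are therefore also given for the E12.5 pair alone, an alternative added after seeing the data. The same array enters every stage effect in females and every sex difference at E14.5, those of the gene lists included.

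Of the 14 marker probe sets, 7 lay above the floor on all 8 arrays, 3 on some arrays and 4 on none. At least 1 probe set was above the floor on all 8 arrays for Csf1r, Laptm5, Cd68, Tyrobp, Cd14 and C1qb, and on 6 arrays for Adgre1. The floor is a percentile and no detection call was used, so a value above it does not by itself show a detected transcript. Of the 14, 10 were above it on at least 2 arrays, beside 8452 of the 12488 on the array, controls left out. Adgre1 (103507_at) lay close to it, at 6.74 to 7.36. The label of the set thus holds for 7 of the 8 genes only in the sense that a probe set lay above the floor. Fcer1g was the exception, with both of its probe sets (160692_at and 162181_f_at) under the floor on every array, at 5.44 to 6.29. The other 2 probe sets under the floor throughout were second sets of Adgre1 (161377_at) and Cd68 (162173_i_at). Levels of different probe sets are not comparable, so each is read only across the arrays.

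**Figure D1:**
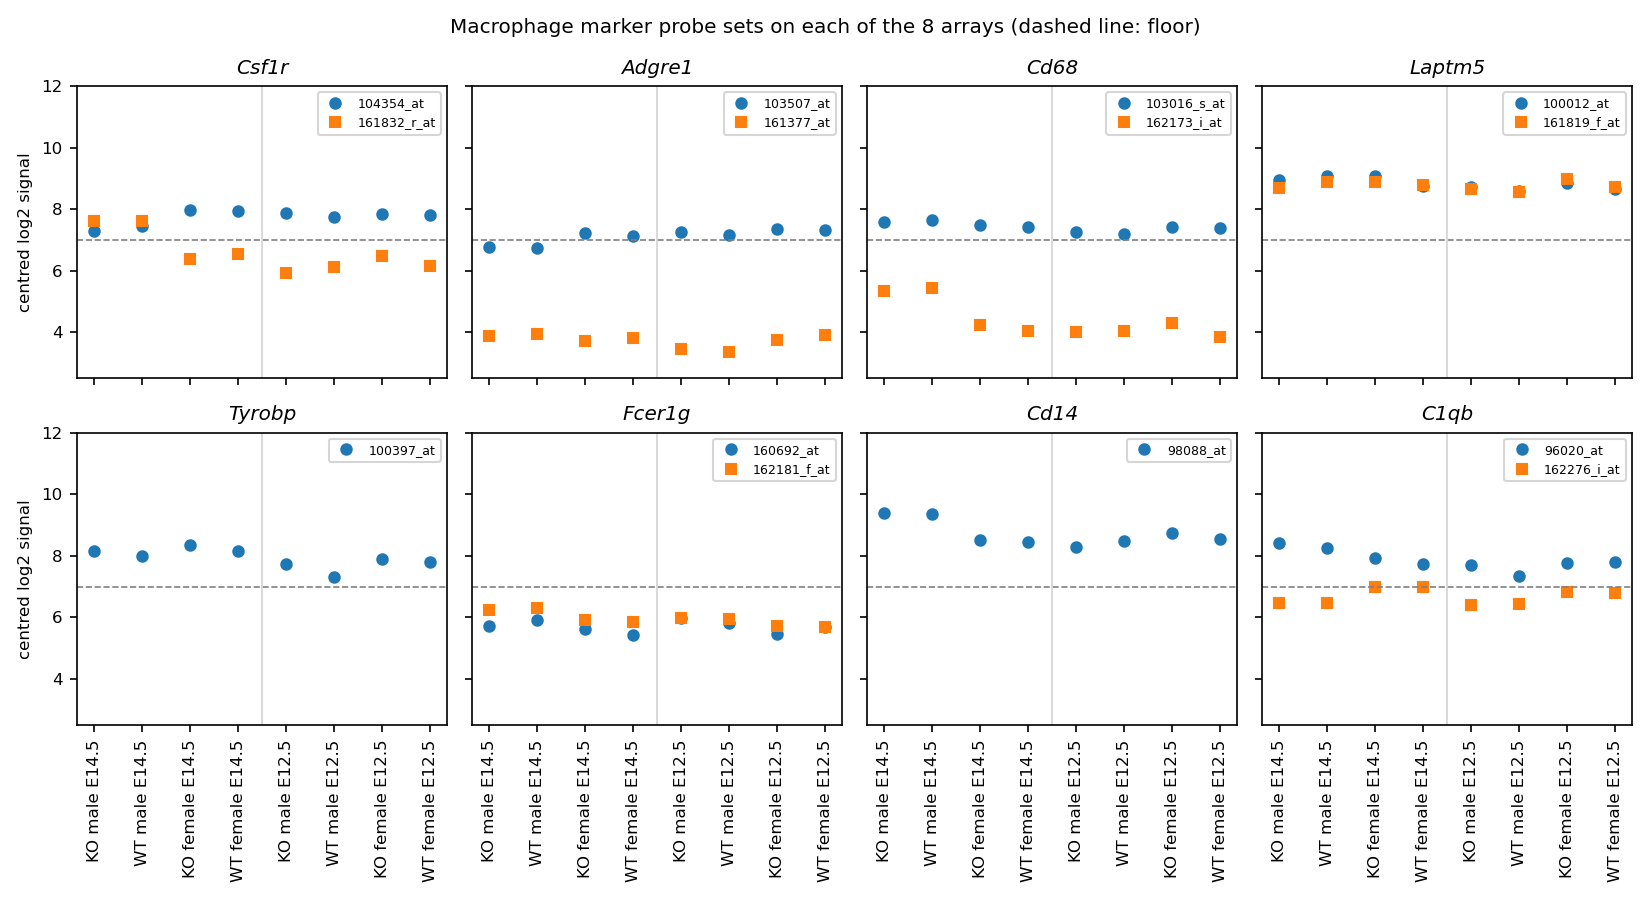
Centred log2 signal of every marker probe set on each of the 8 arrays, in 1 panel per gene, with KO left of WT and E14.5 left of E12.5; the dashed line is the floor of 6.99 and each point is 1 array. The E14.5 male arrays are highest for Cd14 and C1qb 96020_at, lowest for Csf1r 104354_at and Adgre1 103507_at, and both Fcer1g probe sets stay under the floor.

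Csf1r was read by a pair of probe sets that did not follow each other. By 104354_at it was at 7.28 (KO male), 7.46 (WT male), 7.96 (KO female) and 7.93 (WT female) at E14.5. At E12.5 the same groups were at 7.86, 7.73, 7.84 and 7.82. The female arrays and the E12.5 male arrays thus lay within 7.73 to 7.96, and both E14.5 male arrays were below them. By 161832_r_at, a set whose suffix marks probes chosen under relaxed rules, the same 2 E14.5 male arrays were the highest, at 7.60 each, and the other 6 arrays lay under the floor, at 5.91 to 6.54. That second set entered the fit only through these 2 arrays, while 104354_at was above the floor on all 8 arrays. The sets are thus not of equal weight, and no direction in E14.5 males is drawn from their disagreement.

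Adgre1 (103507_at) was at 6.76 (KO male), 6.74 (WT male), 7.22 (KO female) and 7.13 (WT female) at E14.5, and at 7.24, 7.17, 7.36 and 7.32 in these groups at E12.5. Both E14.5 male values were under the floor. In both sexes the E12.5 arrays were above the E14.5 arrays without overlap, over a narrow span.

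Laptm5 was measured well above the floor by both of its probe sets. By 100012_at it was at 8.93 (KO male), 9.07 (WT male), 9.07 (KO female) and 8.75 (WT female) at E14.5. At E12.5 these groups were at 8.72, 8.59, 8.84 and 8.65. By 161819_f_at the values were 8.67, 8.88, 8.89 and 8.79 at E14.5 and 8.64, 8.54, 8.98 and 8.71 at E12.5. With both sets KO exceeded WT in both female pairs and in the E12.5 male pair, and was below WT in the E14.5 male pair.

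Cd68 (103016_s_at) varied little, from 7.19 in WT males at E12.5 to 7.65 in WT males at E14.5. At E14.5 it was at 7.57 (KO male), 7.65 (WT male), 7.49 (KO female) and 7.40 (WT female), and at E12.5 at 7.26, 7.19, 7.41 and 7.40. The female arrays of the stages overlapped, and the male arrays did not.

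Tyrobp (100397_at) was at 8.17 (KO male), 8.00 (WT male), 8.35 (KO female) and 8.16 (WT female) at E14.5. At E12.5 the same groups were at 7.71, 7.31, 7.89 and 7.79. All 4 E14.5 arrays were above all 4 E12.5 arrays, and in each of the 4 pairs KO was above WT.

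Cd14 (98088_at) was at 9.38 (KO male), 9.35 (WT male), 8.51 (KO female) and 8.44 (WT female) at E14.5, against 8.28, 8.47, 8.74 and 8.54 at E12.5. Apart from the E14.5 males the arrays lay within 8.28 to 8.74. C1qb (96020_at) had a similar order, with 8.43 (KO male), 8.25 (WT male), 7.91 (KO female) and 7.73 (WT female) at E14.5, against 7.71, 7.35, 7.75 and 7.79 at E12.5. Its second probe set (162276_i_at) crossed the floor only on the 2 E14.5 female arrays, at 6.99 on both.

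KO gonads were compared with WT gonads to ask whether the macrophage transcripts depend on Wnt4. Few differences were large. No marker probe set differed by 1.5-fold or more in any of the 4 pairs of KO and WT arrays. Over all probe sets with an array of the pair above the floor, 0.408% were at least 1.5-fold higher and 0.197% lower in KO males at E14.5, and 0.252% and 0.265% in KO males at E12.5. For KO females these shares were 0.431% and 1.01% at E14.5 and 0.317% and 0.554% at E12.5. Among marker probe sets with an array of the pair above the floor, the widest gap over WT was that of Tyrobp in males at E12.5, at 7.71 in KO and 7.31 in WT, followed by C1qb in the same pair.

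In the limma fit, none of the 10 fitted marker probe sets passed an adjusted p of 0.05 for the KO effect in females, in males or over both sexes, beside 0.0% of the 8452 fitted probe sets in each comparison. The fit takes its error from 2 residual degrees of freedom. At an unadjusted p under 0.05 there were 962 probe sets in females, 405 in males and 489 over both sexes. The markers among them were Laptm5 (100012_at) in females, Tyrobp and C1qb in males, and Tyrobp and C1qb over both sexes. Tyrobp was 1.16-fold higher in KO over both sexes (log2 0.21 ± 0.056 SE, 95% interval 0.066 to 0.36, limma adjusted p = 0.841), higher in KO in 4 of 4 pairs. C1qb was 1.12-fold higher (0.17 ± 0.061, 95% interval 0.0091 to 0.33, limma adjusted p = 0.851), in 3 of 4 pairs. Laptm5 (100012_at) was 1.20-fold higher in KO females (0.26 ± 0.090, 95% interval 0.024 to 0.49, limma adjusted p = 0.436), and by 0.20 in the E12.5 female pair alone. None of these passes the correction. In males, Tyrobp and C1qb differed by 0.29 and 0.27, and by 0.17 each with an E12.5 male array of either genotype left out.

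The 95% intervals of the fit reflect how the KO minus WT difference varied between the stages, not the spread between replicate gonads. For Csf1r by 104354_at, the KO effect over both sexes was -0.0024 with an interval of -0.17 to 0.16. For Cd14 it was 0.024 (-0.13 to 0.18), for Cd68 0.022 (-0.083 to 0.13) and for Adgre1 0.052 (-0.017 to 0.12). These intervals take no account of the 9 comparisons made or of the 10 probe sets.

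In direction, the KO effect in females was above 0 for 9 of the 10 marker probe sets and below 0 for none, with 1 at the floor on all female arrays. C1qb by 162276_i_at counts among the 9 with 0.0004. Among all fitted probe sets 35.7% were above 0. The median over the markers was 0.070 and over all fitted probe sets -0.022. In the E12.5 female pair alone, 7 were above 0, 1 was below and 2 were at the floor, with a median of 0.033 against -0.015 over all, of which 35.3% were above 0. In KO males 4 were above 0 and 5 below, with a median of -0.0028 against 0.011 over all. Leaving out an E14.5 male array of either genotype gave a median of 0.086. By the pairs themselves, taken without the floor, KO was above WT in both female pairs for 8 of 10 marker probe sets (25.5% of all), in both E12.5 pairs for 6 of 10 (20.4%), and in both male pairs for Adgre1, C1qb and Tyrobp (30.5%). Adgre1 and Tyrobp were above WT in all 4 pairs, as were 4.49% of all probe sets. For Adgre1 both arrays of the E14.5 male pair were under the floor (6.76 and 6.74), where signals were not ordered. Its higher KO value can thus be read only in the other pairs. C1qb (162276_i_at), among the 8, was likewise under the floor on both arrays of the E12.5 female pair. No test of the set was made, and each female pair shares its 2 arrays among all these probe sets. The KO-by-sex difference passed for 0 marker probe sets (0.0% of all; 971 at an unadjusted p under 0.05).

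**Figure D2:**
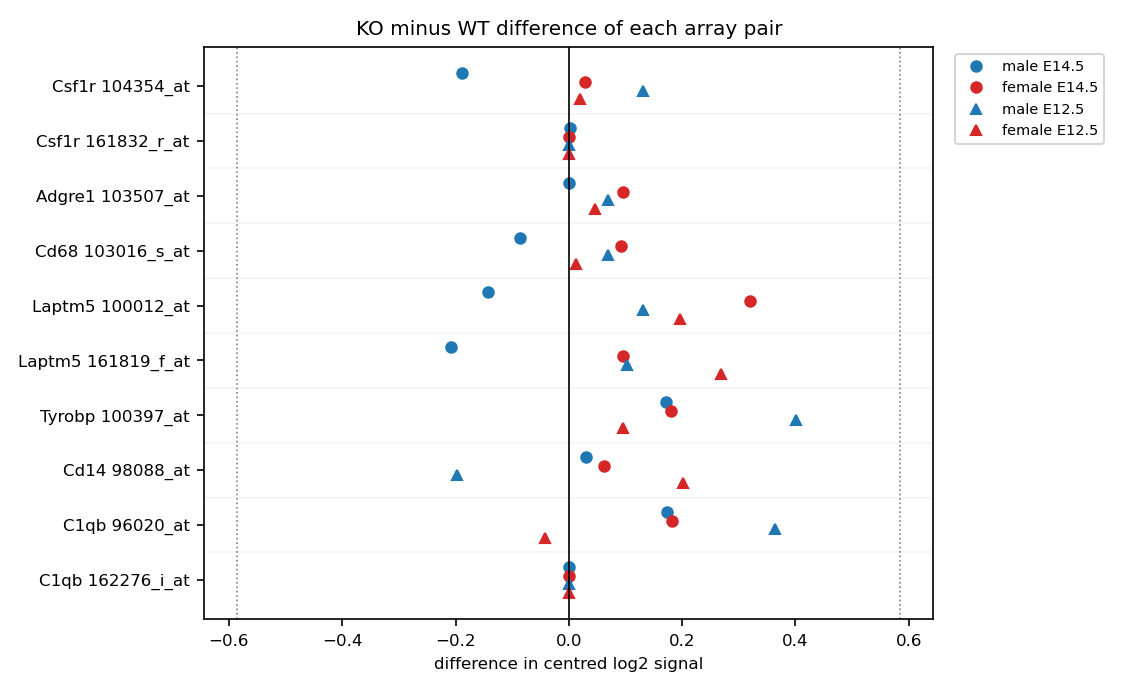
Difference KO minus WT (log2) of each fitted marker probe set in each of the 4 pairs of arrays, with values under the floor set to it; dotted lines mark 1.5-fold. All points lie inside the lines, and Tyrobp is at or right of 0 in every pair.

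E14.5 gonads were compared with E12.5 gonads of the same sex to ask how the macrophage transcripts changed over these days. In females, Tyrobp rose and Adgre1 fell, and the other 8 fitted probe sets did not pass. Tyrobp was 1.33-fold higher at E14.5 (0.41 ± 0.079, limma adjusted p = 0.0281), higher in both female pairs; without centring the difference was 0.16 and did not pass (limma adjusted p = 0.142). Adgre1 was at 0.89 of its E12.5 level (-0.16 ± 0.037, limma adjusted p = 0.0404), lower in both. These effects include the WT female E14.5 array with Eif2s3y in the male range. In the KO female pair, which does not hold it, Tyrobp differed by 0.46 and Adgre1 by -0.14. The 2 calls stand beside 23.1% of all probe sets called in this comparison, 8.41% higher and 14.6% lower. Both calls were lost when any 1 of the 8 arrays was left out, and no probe set passed in those fits. Leaving out any array, a male one included, lowers the residual degrees of freedom. The loss therefore does not show which array the calls rest on. Without the E14.5 males the difference of Tyrobp was the same and its adjusted p was 0.109. In size, no marker probe set differed by 1.5-fold in either female pair. Over all probe sets, 2.31% were at least that much higher and 3.27% lower in KO females, and 2.5% and 3.59% in WT females.

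The remaining markers gave values without a call in females. C1qb (96020_at) differed by 0.048 ± 0.087, Cd68 by 0.045 ± 0.057, Csf1r (104354_at) by 0.11 ± 0.090 and Cd14 by -0.16 ± 0.085. Laptm5 differed by 0.16 ± 0.090 with 100012_at and by -0.0048 ± 0.10 with 161819_f_at. The direction was thus mixed, with 6 probe sets above 0, 3 below 0 and a median of 0.026, against -0.016 over all. C1qb by 162276_i_at counts among the 6 with 0.0069. By the arrays without the floor, E14.5 was above E12.5 in both female pairs for 5 of 10 marker probe sets (34.5% of all), in both male pairs for 8 of 10 (45.5%) and in all 4 pairs for 4 of 10 (20.0%), namely Tyrobp, Cd68, Laptm5 (100012_at) and C1qb (162276_i_at). That C1qb set, in all 3 counts, was fitted only through the 2 E14.5 female arrays, and its male values were all under the floor. Csf1r by 161832_r_at, among the 8, was fitted only through the 2 E14.5 male arrays. Neither is support for a rise.

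In males, 8 of the 10 marker probe sets passed, 6 higher and 2 lower at E14.5, beside 77.8% of all probe sets called (38.0% higher, 39.9% lower). A share this close to the background says little about the markers. Among the 6, Csf1r by 161832_r_at was fitted only because it was above the floor on the 2 E14.5 male arrays. It is counted here and among those past 1.5-fold, but is no support for a rise. Cd14 was 1.98-fold higher (0.99 ± 0.085, limma adjusted p = 0.000354), C1qb 1.75-fold (0.81 ± 0.087, limma adjusted p = 0.000741) and Tyrobp 1.48-fold (0.57 ± 0.079, limma adjusted p = 0.00195). Cd68 and Laptm5 (100012_at) rose by less, by 0.38 and 0.34. Csf1r by 104354_at was at 0.74 of its E12.5 level (-0.43 ± 0.090, limma adjusted p = 0.00864). With a KO male array of either stage left out, that difference was -0.27. With a WT male array of either stage left out, Laptm5 (100012_at) differed by 0.21 and no longer passed. Csf1r by 161832_r_at was higher by at least 0.61 in both genotypes, against E12.5 values under the floor. Adgre1 fell, by at least 0.26 in KO males and at least 0.19 in WT males, to E14.5 values under the floor. Past 1.5-fold, 3 probe sets were higher and 1 was lower in KO males (19.6% and 26.0% of all), and 4 were higher and 0 lower in WT males (20.2% and 25.3%). Cd14 in KO males was the single one past 2-fold, beside 7.45% of all probe sets. On the deposited values without centring, which shift the median of all probe sets by -0.69, Cd68, Laptm5 and Tyrobp turned negative, so these directions are relative to the median of the array.

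**Figure D3:**
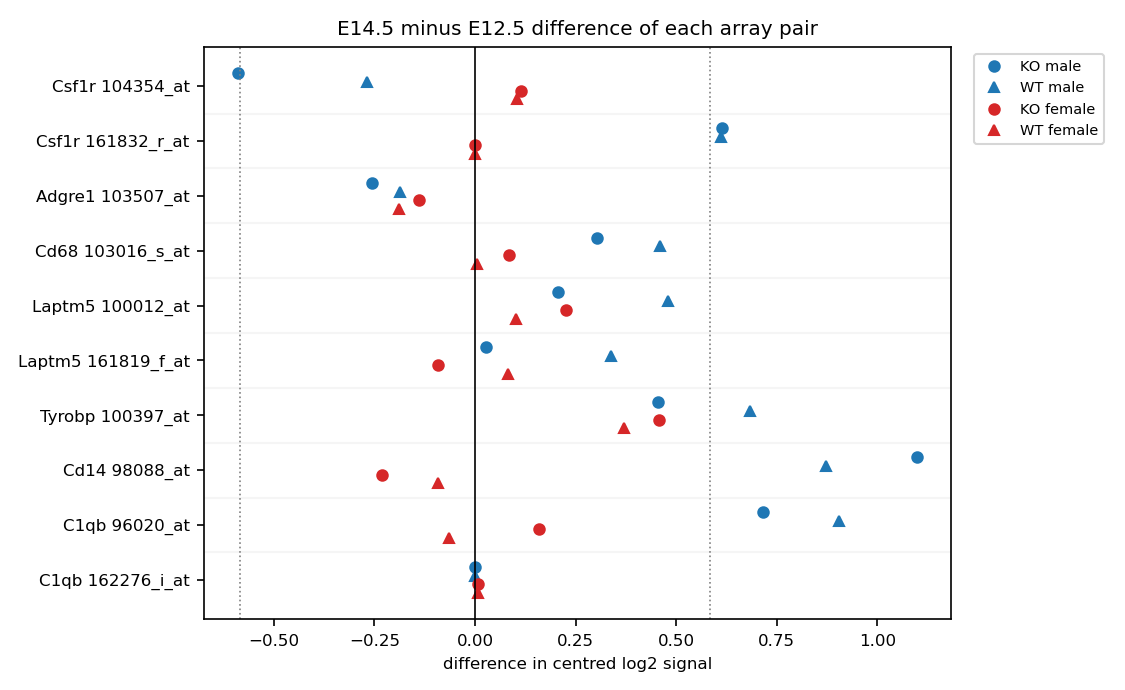
Difference E14.5 minus E12.5 (log2) of each fitted marker probe set in KO and WT males and in KO and WT females, with values under the floor set to it; dotted lines mark 1.5-fold. The female points lie inside the lines, and the male points of Cd14 and C1qb 96020_at lie right of them.

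The stage effect itself was compared between the sexes. It differed for 5 of the 10 marker probe sets, beside 69.0% of all. Among the 5 is Csf1r by 161832_r_at, which was fitted only through the E14.5 male arrays and is no support. The difference, males minus females, was 1.15 ± 0.12 for Cd14 (limma adjusted p = 0.00118), 0.76 ± 0.12 for C1qb (limma adjusted p = 0.0045), 0.34 ± 0.080 for Cd68 (limma adjusted p = 0.0168, and -0.19 without centring) and -0.54 ± 0.13 for Csf1r by 104354_at (limma adjusted p = 0.0159). Tyrobp rose in both sexes, by 0.57 in males and 0.41 in females, and its difference between them did not pass.

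Male and female gonads of the same stage were compared next. At E12.5 the E14.5 male arrays play no part in the values. Taken without the floor, 9 of 10 marker probe sets were lower in both male arrays than in the female arrays of the same genotype. Of all probe sets, 38.4% were. Among the 9, C1qb (162276_i_at) and Csf1r (161832_r_at) were under the floor on every E12.5 array, where signals were not ordered. With the floor, the fitted difference was below 0 for 8 and above 0 for 0, where 44.0% of all were above 0. No marker probe set was past 1.5-fold. Over all probe sets, 2.77% were at least that much higher and 1.07% lower in KO males, and 1.52% and 1.57% in WT males. The median of the fitted differences was -0.15, against 0.0 over all. No marker passed, beside 16.3% of all probe sets called. Tyrobp came closest at 0.80-fold (-0.33 ± 0.079, limma adjusted p = 0.0554), followed by Adgre1 at 0.91-fold (-0.13 ± 0.037, limma adjusted p = 0.0735). Cd68 differed by -0.18, Cd14 by -0.26 and C1qb (96020_at) by -0.24, also without passing. Without the WT male array these were -0.098 for Cd68, -0.15 for C1qb and -0.21 for Tyrobp, with a marker median of -0.097. Cd14 was at -0.15 without the KO male array, and C1qb at -0.13 without the WT female array. On the deposited values without centring the Adgre1 difference was 0.0071, a change of sign, and the median of all probe sets moved by 0.12.

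Other transcripts and array measures differed at E12.5 in the same comparison. Of 11 fitted erythroid genes, 4 passed as higher in males, among them the alpha-globin gene Hba-a1 (0.65), and none as lower. The 9 spike-in probe sets averaged 9.78 and 9.48 on the KO and WT male arrays, against 8.83 and 8.85 on the KO and WT female arrays. The excess of the 3′ over the 5′ actin signal is larger where RNA is less intact. It was 1.10 and 0.96 on these male arrays and 0.49 and 0.49 on these female arrays (log2). Their part in the marker differences was not tested.

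At E14.5, 5 of 10 marker probe sets passed, beside 77.5% of all. The counts of this paragraph include Csf1r by 161832_r_at, which was fitted only through the E14.5 male arrays and is no support. Cd14 was 1.85-fold higher in males (0.89 ± 0.085, limma adjusted p = 0.00053) and C1qb 1.44-fold (0.52 ± 0.087, limma adjusted p = 0.00377). Csf1r by 104354_at was at 0.67 of the female level (-0.57 ± 0.090, limma adjusted p = 0.00303). Adgre1 also passed, as lower in males (-0.19 ± 0.037, limma adjusted p = 0.0072). Its male values were under the floor, so the size of this difference is a lower bound. With the floor, it differed by -0.24 in the KO pair and by -0.14 in the WT pair. Cd68 (0.16, limma adjusted p = 0.0502), Tyrobp (-0.17) and Laptm5 (0.093) did not pass. Without the floor, 4 of 10 probe sets were higher in both male arrays than in the female arrays of the same genotype, as were 46.2% of all. Past 1.5-fold, 2 probe sets were higher and 1 was lower in KO males (20.9% and 21.6% of all), and 2 were higher and 0 lower in WT males (21.1% and 25.3%). All of these values rest on the E14.5 male arrays. The fitted differences and the WT pair also rest on the WT female array with Eif2s3y in the male range. In the KO pair alone, Cd14 differed by 0.87, C1qb (96020_at) by 0.52 and Csf1r (104354_at) by -0.68. The spike-in mean was 10.09 and 9.98 on the KO and WT male arrays of this stage and 9.05 and 8.88 on the KO and WT female arrays. The 3′ over 5′ actin excess was 1.09 and 1.37 on these male arrays and 0.55 and 0.77 on these female arrays, and the part of these measures in the marker differences was not tested.

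Other genes of the same pathways were read from lists of macrophage and blood cell genes. The 3 chains of C1q were on the array. C1qa, another chain of the C1q molecule, was at 8.69 (KO male), 8.83 (WT male), 8.51 (KO female) and 8.33 (WT female) at E14.5, against 7.95, 7.88, 7.73 and 7.78 at E12.5. It rose in females (0.67 ± 0.094, limma adjusted p = 0.0157) and in males (0.84, limma adjusted p = 0.00087). In the KO female pair alone C1qa differed by 0.79. C1qc differed by 0.13 in females and 0.18 in males and passed in neither. C1qb (96020_at) passed in males, and its difference between the sexes passed too.

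Next came a list of CSF1, receptors of other colony-stimulating factors and myeloid transcription factors. Of its 8 fitted genes, 1 rose and none fell in females with stage, and 7 rose and none fell in males. Among the 7 were Csf3r, Csf2ra and Csf2rb, which are not genes of CSF1 signalling. Csf1 was the only fitted gene of CSF1 signalling itself in this list. The shares of all probe sets called in these directions were 8.41% and 14.6% in females and 38.0% and 39.9% in males. The gene that rose in females was Cebpa (0.60 ± 0.12, limma adjusted p = 0.0284), a transcription factor also used outside the myeloid lineage. Csf1, the ligand, was at 8.83 (KO male), 8.88 (WT male), 8.14 (KO female) and 8.15 (WT female) at E14.5, against 7.96, 7.88, 8.12 and 7.97 at E12.5. Spi1 was at 8.39, 8.29, 7.13 and 6.95 at E14.5 and at 7.15, 7.06, 7.03 and 6.90 at E12.5. It was thus near the floor on all but the E14.5 male arrays, and under it on both WT female arrays. KO minus WT was 0.092 and 0.088 in males at E14.5 and E12.5. In females it was at least 0.14 and at least 0.042, since the WT values were under the floor, and it did not pass in either sex.

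Of the 14 fitted genes of the tissue macrophage list, 2 rose and 1 fell in females with stage, beside the same 8.41% and 14.6% of all, and 9 rose and 3 fell in males. Gas6, a ligand of the phagocytic receptors of the TAM family that other cells also make, rose by 0.98 ± 0.12 (limma adjusted p = 0.0126). Cx3cr1, the fractalkine receptor of macrophages and microglia, rose by 0.28 (limma adjusted p = 0.0427), and Dab2, an endocytic adaptor, fell by 0.30. In the lysosome list, of 16 fitted genes 2 rose and 3 fell in females, against the same shares of all, and 1 rose and 8 fell in males. Ctss, a protease of antigen-presenting cells, was at 8.19 (KO) and 8.04 (WT) in E14.5 females, against 7.08 (KO) and 6.82 (WT, under the floor) at E12.5, and was under the floor on all 4 male arrays. In females, Npc2, Grn and Gusb fell by 0.35, 0.33 and 0.35. Of the 6 fitted partners of the ITAM adaptors, Plcg2 fell in females (-0.50) and none rose. In males 5 of them rose and none fell, beside 38.0% and 39.9% of all, and Plcg2 rose there by 0.88. No gene of these lists passed for a KO effect.

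Markers of other blood cells were read on the same arrays. In KO against WT females, the median difference was 0.11 over the 11 fitted pan-leukocyte genes, 0.14 over 5 monocyte and granulocyte genes, 0.13 over 5 lymphoid genes and 0.15 over 4 mast cell genes, all with no call. In the E12.5 female pair alone these medians were 0.097, 0.021, 0.11 and 0.039. In KO against WT males they were -0.066, 0.015, -0.034 and -0.088. Over 11 erythroid genes the median in females was -0.085, over 11 endothelial genes 0.035 and over 6 germ cell genes 0.14. The lists of the supporting cells lay further from 0 in the fit for KO females. Their medians were -0.32 over 7 Sertoli genes and -1.04 over 6 pregranulosa genes, a list that holds Wnt4 itself. In the E12.5 female pair alone the Sertoli median was 0.0115, with 4 genes above 0 and 3 below. The Sertoli difference in females thus rested on the E14.5 pair (-0.50), which holds the WT array with Eif2s3y in the male range. The E12.5 pair gave -1.36 for pregranulosa, -0.038 for erythroid, 0.0355 for endothelial and 0.072 for germ cell genes. In KO against WT males the Sertoli median was -0.29 in the fit. It was -0.48 in the E14.5 male pair, with 0 genes above 0 and 7 below, and -0.12 in the E12.5 male pair. In males with stage, the medians were 0.58, 0.71, 1.42 and 0.43 for the 4 leukocyte lists and 0.38 for the 7 fitted marker genes. Cd79a, a component of the B cell receptor, was at 8.99 and 9.10 in the KO and WT E14.5 males and within 7.14 to 7.51 on the other 6 arrays. Their part in the marker values was not tested.

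**Figure D4:**
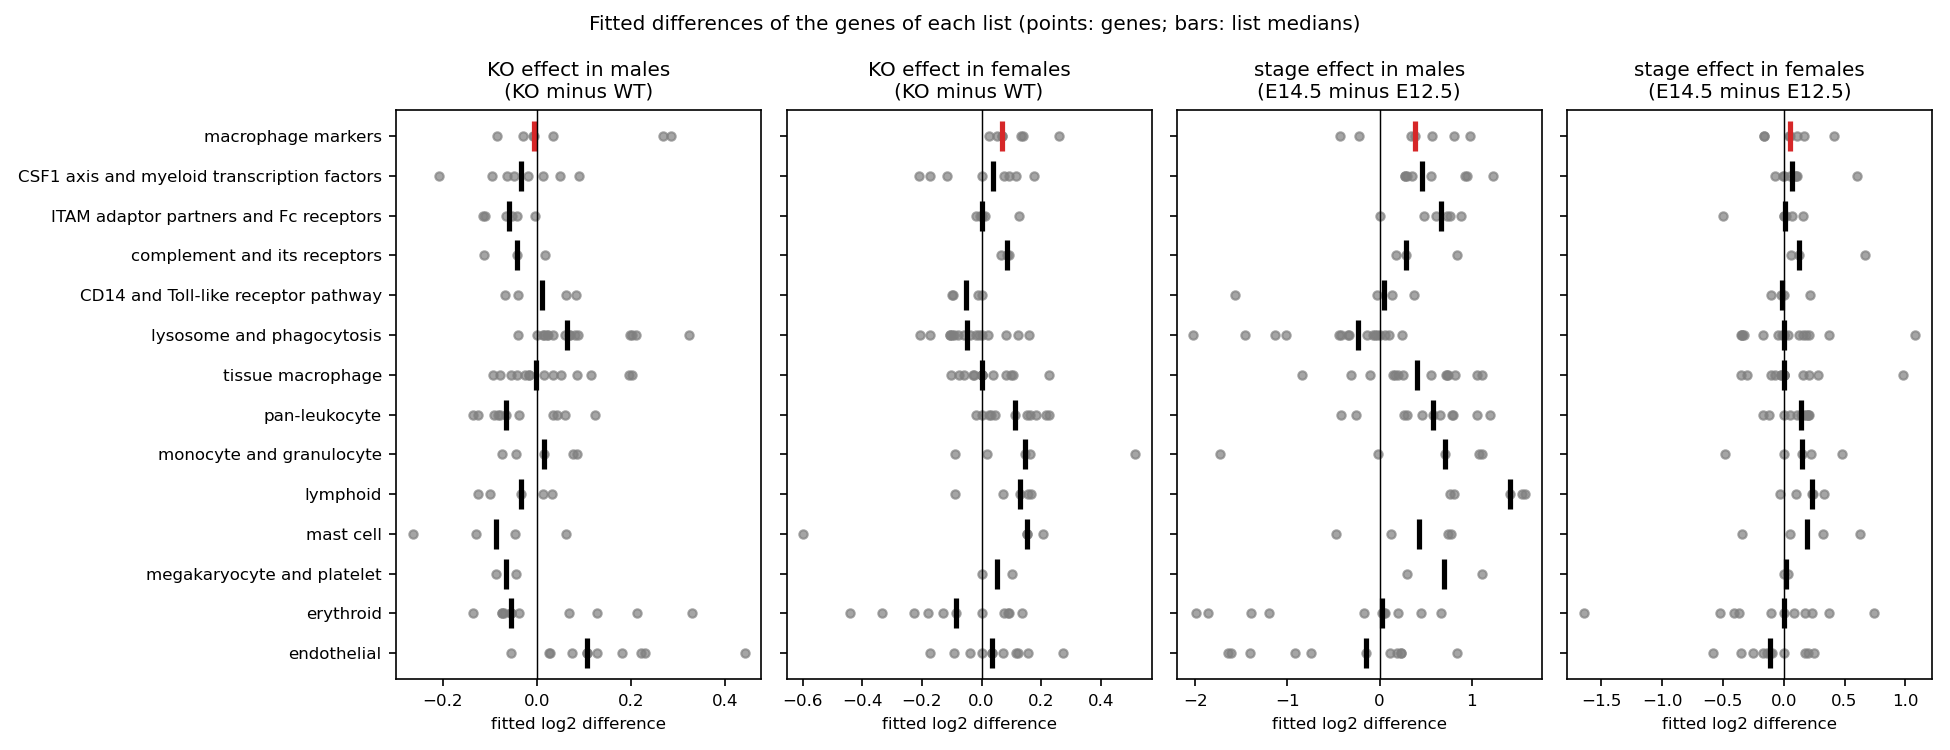
Fitted difference (log2, limma) of each fitted gene of the markers and of 13 lists of pathway, blood cell and endothelial genes, in 4 panels for KO minus WT and for E14.5 minus E12.5 in males and in females; points are genes and bars are list medians, red for the macrophage markers. The bars drawn lie between -0.088 and 0.15 in both KO panels, and in males with stage the lymphoid bar lies furthest right, at 1.42.

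Genes with a profile like the markers were ranked by Pearson r with the mean centred profile of the fitted marker probe sets over 6 arrays, leaving out the E14.5 males. The candidates were 2040 probe sets above the floor on all 6 arrays with a range of at least 0.5. Mpeg1, the gene of the phagocyte pore-forming protein perforin-2, ranked first (r = 0.987 over 6 arrays and 0.930 over all 8). It was at 8.00 (KO female) and 7.77 (WT female) at E14.5, and at 7.43 (KO male), 7.37 (WT male), 7.84 (KO female) and 7.62 (WT female) at E12.5. The other 7 were Cyp51, Cdk5r2, Tnnt1, Strn4, Rag1, Aamdc and Rgs2, with r between 0.961 and 0.981. Over all 8 arrays, Rag1 and Strn4 kept r of 0.981 and 0.956, while Cyp51 (0.029), Tnnt1 (-0.14) and Rgs2 (-0.38) did not follow the markers. The points share 6 arrays and their scaling, so these values are a description.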

How the data were processed

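RNA from gonads of 8 mouse groups was hybridised to Affymetrix MG_U74Av2 arrays, 1 array per group. The deposited values are log2 signals made with MAS5, per the submitters' processing notes. For its version, scaling target and log step, the sources used here say nothing, and the log2 scale was read from the values. For the KO males at E12.5, 14 deposited cells held spreadsheet dates in place of log2 values (another kind of number) and were set to missing; no marker was among them.

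Each array was centred on the mean of the array medians, with shifts of -0.337 to 0.472. Values under the 40th percentile of all values (6.99) were set to it, probe sets above it on at least 2 arrays were kept, and 66 control probe sets were left out, which left 8452. Names came from the platform annotation, in which 10833 probe sets had 1 gene, 396 several and 1193 none. limma 3.58.1 (R 4.3.3) was fitted on all 8 arrays with sex × genotype and sex × stage terms, a mean-variance trend and Benjamini-Hochberg correction across all fitted probe sets, two-sided at 0.05. There are 2 residual degrees of freedom, which measure how the KO minus WT difference of a sex changes between stages, and 2.77 prior ones, so the p-values measure that spread and not replicate gonads. The contrasts were tested on simulated data. Differences between the 12 pairs of arrays that differ in 1 factor carry no test, and the number of arrays limits every value. The markers and lists were chosen with earlier results of these data known. Named were all marker probe sets, some of the highest list genes and of the list genes that passed, and the 8 most alike in profile. Other list genes that passed, those of the CD14 and Toll-like receptor list included, are not named. The alternatives were no centring, quantile normalization, other floors and none, no filter, no trend, other models, a 2-fold threshold, and leaving out arrays.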

Additional observations from a re-analysis of the deposited data

Results flagged for a closer look

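The stage change of 5 marker probe sets differed between the sexes by the limma test of the difference, and for Cd14 and Csf1r (104354_at) both male pairs moved opposite to both female pairs. For Cd14, E14.5 minus E12.5 was 1.10 (KO) and 0.87 (WT) in males and -0.23 (KO) and -0.092 (WT) in females, a difference of 1.15. Read the other way, male minus female was positive in both genotypes at E14.5 and negative in both at E12.5, again 1.15 apart. For C1qb (96020_at) the male pairs gave 0.72 (KO) and 0.91 (WT) and the female pairs 0.16 and -0.064, a difference of 0.76, and male minus female changed sign between the stages by the same amount, with 0.52 and 0.53 at E14.5 and -0.038 and -0.44 at E12.5. For Cd68 both differences were 0.34, with male minus female at 0.072 (KO) and 0.25 (WT) at E14.5 and -0.15 and -0.20 at E12.5, and its stage change was positive in all 4 pairs. Csf1r gave opposite answers with its probe sets, -0.54 with 104354_at, where both male pairs fell below 0 and both female pairs lay above it, and 0.61 with 161832_r_at, where 6 arrays were at the floor. All of these rest on the 2 E14.5 male arrays, on which 69.0% of all probe sets passed the same test. Array and testis state cannot be told apart there.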

How the results depend on the processing

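Several calls depended on centring and on the arrays kept. Without centring, the median of all probe sets shifted by -0.69 for the stage effect in males, -0.27 for it in females and for the sex difference at E14.5, and 0.12 for the sex difference at E12.5. The values without centring that follow include that shift. The stage effect in males was -0.40 for Cd68, -0.44 for Laptm5 (100012_at) and -0.21 for Tyrobp, with a median over the markers of -0.40. The difference of that effect between the sexes was -0.19 for Cd68 and in the median. The sex difference at E14.5 was -0.23 for Cd68 and in the median, with 8 marker probe sets called. The sex difference at E12.5 was 0.0071 for Adgre1 and -0.037 in the median, with 2873 probe sets called over the array. The stage effect in females had a median of -0.20 and 5156 calls, and the marker differences past 1.5-fold over the 12 pairs numbered 8 in place of 13 (4 in place of 8 between stages).

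Without the filter, 40 probe sets passed for stage in females and 31 for the sex difference at E12.5, with 0 markers in the first, and without the E14.5 male arrays 0 passed in either. The KO median in males was then 0.086. With a floor at the 50th percentile, 1 marker passed for stage in females, 1 for the sex difference at E12.5 and 3 for the stage-by-sex difference, the median in males with stage was 0.26, and the pairs past 1.5-fold numbered 6 (4 between stages, 2 between sexes). With no floor, 2 markers passed for the sex difference at E12.5 (median -0.25) and 1 for stage in females, as without the intensity trend. With a floor at the 30th percentile 1 passed at E12.5. Quantile normalization gave medians of 0.49 for stage in males and 0.16 for the sex difference at E14.5. At 2-fold, 1 pair remained in all, between stages, and 0 between sexes. With genotype fitted within stage, 7 probe sets passed for the KO effect at E12.5, where the main fit had 0 for each KO effect.

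Leaving out each array in turn gave no call for any KO effect, for stage in females or for the sex difference at E12.5. Each of these fits has fewer residual degrees of freedom than the main fit, so lost calls do not measure the weight of an array. Over the 8 fits the marker median ran from 0.033 to 0.093 for KO in females, lowest with an E14.5 female array of either genotype left out, from -0.0028 to 0.086 for KO in males, 0.26 to 0.47 for stage in males, -0.025 to 0.16 for sex at E14.5 (3 to 5 markers called) and 0.042 to 0.33 for the stage-by-sex difference (3 to 4 called). No paired analysis was possible because each group had 1 array and the labels number no replicates.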

Other observations

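S100a8, which encodes a calcium-binding protein abundant in neutrophils and monocytes, was chosen after its values were seen. It was at 7.98 in KO females and 6.58 in WT females at E14.5, where the WT value lay under the floor, so the difference was at least 0.99 on the log2 scale. At E12.5 it was at 7.02 in KO females and 6.46 in WT females, a bound of only 0.038. Over both stages it did not pass in females (0.51 ± 0.22, limma adjusted p = 0.45). Hdc, the histamine-synthesising enzyme of mast cells and basophils, had the opposite sign, at 7.06 (KO) and 7.24 (WT) in E14.5 females and at 6.88 (KO) and 8.00 (WT) in E12.5 females. It did not pass for a KO effect in females (-0.60).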
